A study of Mus musculus with 6 samples.

Results

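The BCL2 family decides whether a cell under stress keeps its mitochondria intact, and 10 of its genes were followed in mouse Th17 cells with and without a CRISPR/Cas9 knockout of Sirt2. They were taken by gene symbol from a named list, and all 10 were found among the 24182 genes of the table: the pro-survival genes Bcl2, Bcl2l1, Mcl1 and Bcl2a1b, the effector Bax, and the BH3-only genes Bcl2l11, Bbc3, Pmaip1, Bid and Bad. RNA came from 3 libraries of Sirt2 KO Th17 cells and 3 libraries of Sirt2 WT control Th17 cells, and Th17 cells are the CD4 helper T cells that make interleukin 17. Cells of both groups had been stimulated for 72 hours with antibodies to CD3 at 0.5 μg/mL and to CD28 at 1 μg/mL, which stand in for antigen and costimulation, and their treatment label reads untreated. The labels used here name neither the guide, nor whether KO cells were a clone or a pool, nor the age or strain of the mice, and no label states that replicates were separate cultures or animals. The p-values below therefore reflect the scatter of these libraries alone, and that scatter could be technical.

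Pro-survival proteins of this family (BCL2, BCL-xL from Bcl2l1, MCL1 and A1 from the Bcl2a1 genes) hold the effectors BAX and BAK in check at the outer mitochondrial membrane. BH3-only proteins such as BIM (Bcl2l11), PUMA (Bbc3), NOXA (Pmaip1), BID and BAD bind the pro-survival proteins, and some also act on the effectors directly. Once effectors open the membrane, cytochrome c is released and caspases are activated. In T cells, activation through the antigen receptor is known to induce Bcl2l1 and Bcl2a1 genes, while BIM is a main killer of activated T cells when growth factors are withdrawn.

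Sirt2, the targeted gene, was at 11.2, 13.5 and 10.9 FPKM (fragments per kilobase, scaled to library size) across KO replicates 1 to 3, against 20.7, 19.9 and 21.9 FPKM across WT replicates 1 to 3. Every KO library was below every WT library (log2 difference -0.76, limma adjusted p = 0.0429, and -0.71, limma adjusted p = 0.00905, without KO replicate 3). Across 10873 genes that reached 1 FPKM in at least 3 libraries, KO replicate 3 stood apart: it correlated at 0.979 to 0.981 with the other KO libraries and at 0.990 with each WT library, while KO replicates 1 and 2 correlated at 0.992. Genes are not independent replicates in such correlations. The tests of the members are therefore given with and without KO replicate 3. Those without it rest on KO replicates 1 and 2 alone. The CD4 T cell markers summed to 682 to 747 FPKM in KO, against 691 to 724 FPKM in WT, and the Th17 markers to 265 to 421 FPKM in KO, against 414 to 438 FPKM in WT, with none of these markers at 0. Some markers of other cells were higher in every KO library, and the rest of those found overlapped between groups. Over all tested genes, 4.28% were higher in every KO library, but many of these markers did not reach 1 FPKM and were not tested. Of 15 myeloid markers, 7 were higher in every KO than every WT library, with sums of 63.3 to 65.6 FPKM in KO, against 51.3 to 57.7 FPKM in WT. For B cells this held for 4 of 9, with sums of 2.08 to 3.48 FPKM in KO, against 1.36 to 1.67 FPKM in WT. Of the cytotoxic and NK markers, 5 of the 9 found were higher in every KO library. The list summed to 25.7 to 29.3 FPKM in KO, against 9.46 to 10.04 FPKM in WT. Gzmb alone was at 19.2, 18.1 and 11.6 FPKM across KO replicates 1 to 3, against 2.66, 2.76 and 2.97 FPKM in WT. Of 3 regulatory T cell markers, 1 (Ikzf2) was higher in every KO library, while Il2ra and Foxp3 overlapped. Some defining markers were near 0: Itgam was at most 0.134 FPKM, Csf1r at most 0.405 FPKM and Ms4a1 at most 0.0376 FPKM in any library. In bulk RNA, fewer cells of a type and less RNA per cell cannot be told apart.

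The members spanned a wide range of levels, and in gene FPKM all the pro-survival genes stood above the BH3-only genes, Bcl2 by the least. In WT libraries, Mcl1 was the highest at 69.0 ± 3.23 FPKM (SD, n = 3), followed by Bcl2l1 at 47.8 ± 0.675, Bcl2a1b at 45.6 ± 0.393 and Bax at 44.4 ± 1.24 FPKM. Bcl2 came next at 11.1 ± 0.623 FPKM. The BH3-only genes were lower: Bid was at 5.73 ± 0.236, Bad at 5.02 ± 0.156, Pmaip1 at 4.63 ± 0.261, Bbc3 at 3.55 ± 0.280 and Bcl2l11 at 1.09 ± 0.0838 FPKM. The WT ranges of Bcl2a1b and Bax overlapped, as did those of Bad and Pmaip1, and all other neighbours in this order were separate. The highest WT mean was 63.1 times the lowest, and over all 6 libraries the members lay between the 5.29th and the 93.6th percentile of tested genes. The order depends on how a gene's level is put together from its transcripts. In the deposited table, the gene value matched the transcripts weighted by length over the gene's exon length, within 1 percent, for 82.6% of genes with several transcripts. On the plain sum of transcript FPKM, Bcl2l1 led at 92.3 ± 1.30 FPKM in WT, followed by Bax at 76.2 ± 2.84, Mcl1 at 69.0 ± 3.23 and Bcl2a1b at 45.6 ± 0.393 FPKM, and Bcl2l11 was again the lowest at 2.41 ± 0.0275 FPKM.

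**Figure D1:**
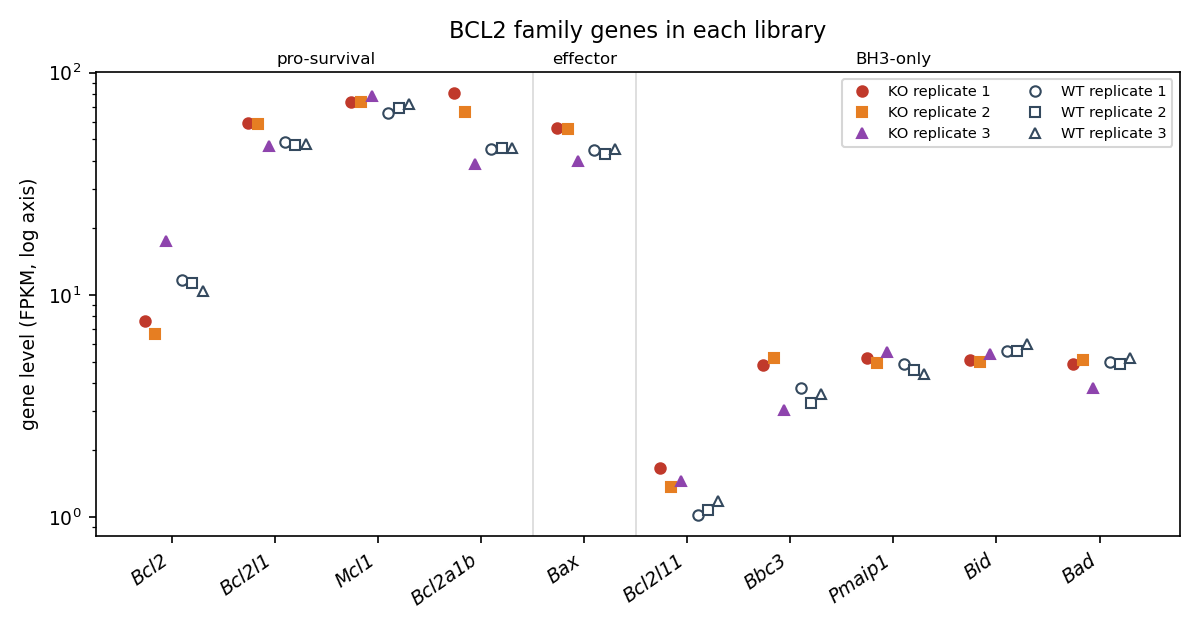
Gene level in FPKM on a log axis for the 10 family genes, with 1 point per library (filled: KO, open: WT) and vertical lines between the roles. The pro-survival genes other than Bcl2, and Bax, lie between 38.8 and 81.2 FPKM, and the BH3-only genes lie at or below 6.001 FPKM in every library.

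The comparison of KO with WT asked whether loss of Sirt2 went with a different set of family transcripts. No member passed the test with all libraries: 0 of 10 had a limma adjusted p under 0.05, beside 0.11% of all tested genes (0.092% higher and 0.0184% lower in KO), and 1 of 10 had an unadjusted p under 0.05, beside 5.61%. The median log2 difference (KO minus WT, on the log2(FPKM + 1) scale used for every difference here) was 0.15 over the members and -0.03 over all tested genes, and 7 of 10 members were positive. The groups did not overlap for 4 of 10 members, beside 11.2% of all tested genes. Mcl1, Bcl2l11 and Pmaip1 were higher in every KO library (3 of 10, beside 4.28%) and Bid was lower in every KO library (1 of 10, beside 6.88%). Without KO replicate 3, 5 of 10 members passed, beside 10.1% of all tested genes: Bcl2l1, Bcl2a1b, Bax and Bbc3 were higher in KO and Bcl2 was lower. The share called higher was 4 of 10, beside 4.0% of genes, and the share called lower 1 of 10, beside 6.14%, and 6 of 10 had an unadjusted p under 0.05, beside 32.5%. KO replicates 1 and 2 both lay outside the whole WT range for 9 of 10 members (50.1% of tested genes), and KO replicate 3 lay on the other side of the WT mean from them for 5 of 10 (47.0%). The exception to the first count was Bad.

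**Figure D2:**
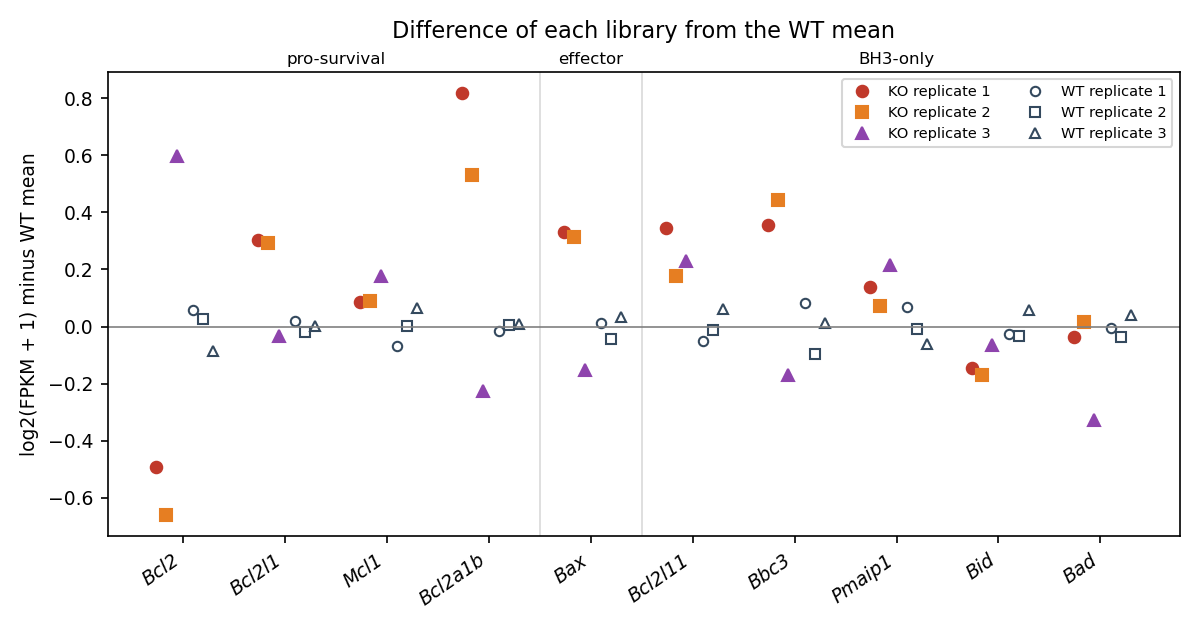
Difference of each library from the WT mean in log2(FPKM + 1), with 1 point per library (filled: KO, open: WT). For Bcl2, Bcl2l1, Bcl2a1b, Bax and Bbc3, KO replicates 1 and 2 lie on one side of the WT mean and KO replicate 3 on the other, whereas for Mcl1, Bcl2l11, Pmaip1 and Bid all 3 KO libraries lie on one side.

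Bcl2, the founding survival gene of the family (ENSMUSG00000057329, GRCm38 chromosome 1, 106538178 to 106714274, minus strand), varied most among the members. It was at 7.64, 6.68 and 17.4 FPKM across KO replicates 1 to 3, against 11.6, 11.3 and 10.4 FPKM in WT replicates 1 to 3. KO replicates 1 and 2 were thus below all WT libraries and KO replicate 3 above them all. The log2 difference was -0.18 (SE 0.296, 95% interval -0.87 to 0.50, limma adjusted p = 0.910). Bcl2 fell in KO once KO replicate 3 was left out, with a log2 difference of -0.58 (95% interval -0.76 to -0.39, limma adjusted p = 0.0129). Without KO replicate 2 the difference turned to 0.054 and did not pass.

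Bcl2l1, whose long isoform BCL-xL keeps activated T cells alive (ENSMUSG00000007659, chromosome 2, 152780668 to 152831728, minus strand), moved the opposite way to Bcl2. It measured 59.3, 58.9 and 46.8 FPKM across KO replicates 1 to 3, against 48.5, 47.1 and 47.9 FPKM in WT. KO replicates 1 and 2 were above every WT library and KO replicate 3 just below. The log2 difference was 0.19 (95% interval -0.04 to 0.41, limma adjusted p = 0.843). It rose without KO replicate 3, by 0.30 on the log2 scale (95% interval 0.19 to 0.41, limma adjusted p = 0.0172). The ratio of Bcl2l1 to Bcl2, in gene FPKM, was 7.76, 8.82 and 2.69 in KO, against 4.16, 4.16 and 4.58 in WT.

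Mcl1 encodes a short-lived protein that T cells need to survive (ENSMUSG00000038612, chromosome 3, 95658788 to 95663176, plus strand). It was the steadiest member, at 73.3, 73.4 and 78.1 FPKM in KO, against 65.8, 69.1 and 72.2 FPKM in WT. Every KO library was above every WT library, by a log2 difference of 0.12 (95% interval -0.03 to 0.27, limma adjusted p = 0.843) that did not pass, nor did it without KO replicate 3 (0.09, limma adjusted p = 0.305).

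Bcl2a1b (ENSMUSG00000089929, chromosome 9, 89199209 to 89207827, plus strand) is one of a cluster of near-identical A1 genes, NF-kB targets of activated lymphocytes and myeloid cells. The first 100 coding bases of the copies in the table, from the GENCODE M21 transcripts of GRCm38, are shown because they decide how far reads can be assigned to one copy. Capitals mark the positions at which the copies differ, 7 in this stretch and 12 over the whole coding sequence.
Bcl2a1b: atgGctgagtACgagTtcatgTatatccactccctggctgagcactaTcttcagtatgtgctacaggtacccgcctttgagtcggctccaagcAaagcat
Bcl2a1a: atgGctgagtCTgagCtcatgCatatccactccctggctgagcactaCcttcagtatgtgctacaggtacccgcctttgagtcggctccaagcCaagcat
Bcl2a1d: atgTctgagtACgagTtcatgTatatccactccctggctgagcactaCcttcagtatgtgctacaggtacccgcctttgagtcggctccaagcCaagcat
Over 516 coding bases, Bcl2a1b differed from Bcl2a1a at 11 positions (97.9% identity) and from Bcl2a1d at 6 (98.8% identity). Of all 50-base windows of the Bcl2a1b transcript, 57.6% also occurred in one of the other copies, and of all 100-base windows 31.1%. No source used here gives how the authors' counting split such reads, so the level of each copy is uncertain.

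Bcl2a1b was at 81.2, 66.3 and 38.8 FPKM across KO replicates 1 to 3, against 45.1, 45.7 and 45.8 FPKM in WT replicates 1 to 3. The copies went together: Bcl2a1d was at 90.2, 78.0 and 34.2 FPKM in KO and 40.7, 44.3 and 41.1 FPKM in WT, and Bcl2a1a at 8.21, 6.21 and 2.88 FPKM in KO and 4.61, 3.88 and 4.06 FPKM in WT. For each copy, KO replicates 1 and 2 were above every WT library and KO replicate 3 below every one. The log2 difference of Bcl2a1b was 0.38 (SE 0.233, 95% interval -0.17 to 0.92, limma adjusted p = 0.852). Bcl2a1b rose without KO replicate 3, by 0.68 on the log2 scale (95% interval 0.48 to 0.87, limma adjusted p = 0.00921), the largest difference among the members. Summing the copies, which was chosen after the data were seen, gave 0.47 with all libraries (limma adjusted p = 0.844) and 0.83 without KO replicate 3 (limma adjusted p = 0.00538). Myeloid cells also express these genes, and the myeloid marker sum was 65.6, 65.3 and 63.3 FPKM across KO replicates 1 to 3, against 51.3, 53.2 and 57.7 FPKM in WT. Most of that sum came from Ctss (26.3 to 31.4 FPKM in KO, against 26.6 to 28.4 FPKM in WT) and Cst3 (21.5 to 24.4 FPKM in KO, against 20.8 to 25.9 FPKM in WT), which overlapped between groups. Lyz2, the lysozyme of myeloid cells, measured 8.31, 9.44 and 4.24 FPKM in KO, against 1.38, 1.03 and 0.782 FPKM in WT (log2 difference 1.96, limma adjusted p = 0.0503, and 2.27, limma adjusted p = 0.00160, without KO replicate 3). Like the A1 copies, Lyz2 was lower in KO replicate 3 than in KO replicates 1 and 2, though there it was still above every WT library. The other myeloid markers higher in every KO library differed in this. Cd14 (0.881, 1.09 and 1.49 FPKM across KO replicates 1 to 3), Csf1r (0.265, 0.227 and 0.405) and Cd68 (1.75, 1.71 and 1.92) were highest in KO replicate 3. Fcer1g (0.696, 0.858 and 0.563 FPKM) was lowest there, and Itgam and Itgax lay between KO replicates 1 and 2. The part of myeloid RNA in the A1 values was not tested.

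**Figure D3:**
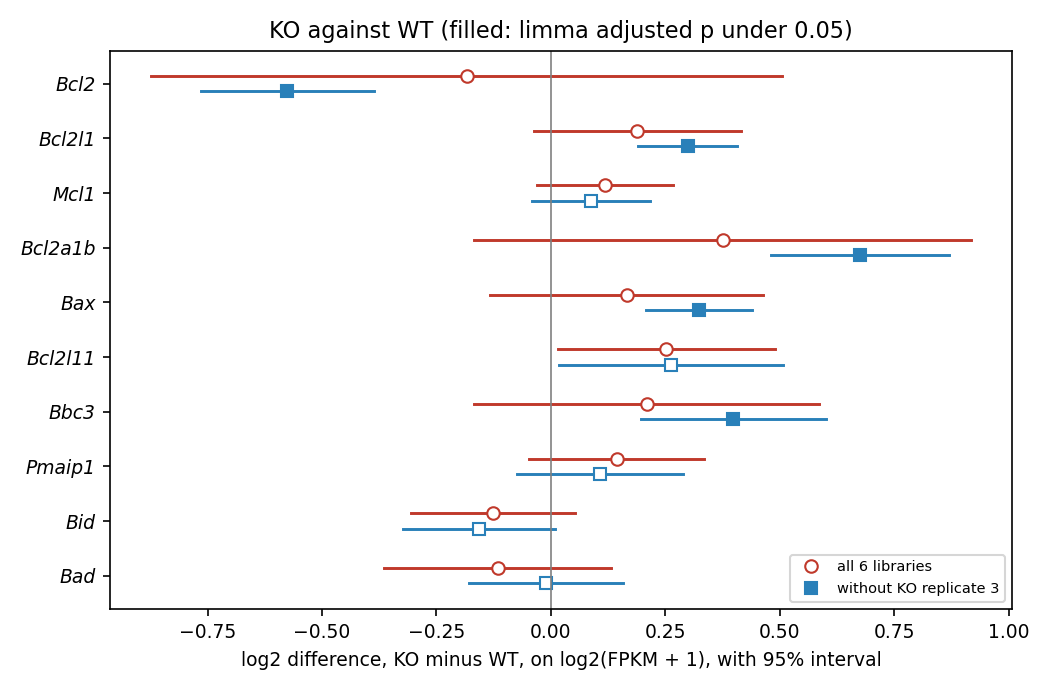
Log2 difference of KO minus WT for each member with its 95% interval, with all 6 libraries (red circles) and without KO replicate 3 (blue squares); filled symbols passed at a limma adjusted p under 0.05. With all libraries no symbol is filled, and without KO replicate 3 Bcl2 (-0.58), Bcl2l1 (0.30), Bcl2a1b (0.68), Bax (0.32) and Bbc3 (0.40) are.

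Bax, the effector among the members, which forms pores in the mitochondrial outer membrane (ENSMUSG00000003873, chromosome 7, 45461697 to 45466898, minus strand), followed Bcl2l1. It was at 56.2, 55.5 and 39.9 FPKM across KO replicates 1 to 3, against 44.8, 43.0 and 45.4 FPKM in WT, so that KO replicates 1 and 2 were above every WT library and KO replicate 3 below every one. The log2 difference was 0.17 (95% interval -0.13 to 0.46, limma adjusted p = 0.870). Bax rose without KO replicate 3, by 0.32 (95% interval 0.21 to 0.44, limma adjusted p = 0.0165). Bcl2l1 over Bax, in gene FPKM, was 1.06, 1.06 and 1.17 in KO, against 1.08, 1.10 and 1.05 in WT. The proportion was thus close in KO replicates 1 and 2 and WT, and highest in KO replicate 3.

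Among BH3-only genes, Bcl2l11 (BIM) had the smallest unadjusted p of the members (ENSMUSG00000027381, chromosome 2, 128126038 to 128162547, plus strand). It was at 1.66, 1.37 and 1.45 FPKM across KO replicates 1 to 3, against 1.02, 1.08 and 1.18 FPKM in WT replicates 1 to 3. All KO libraries were above all WT libraries, and the ratio of means was 1.37. The log2 difference was 0.25 (SE 0.102, 95% interval 0.01 to 0.49, unadjusted p = 0.0402 and limma adjusted p = 0.843), and without KO replicate 3 it was 0.26 (limma adjusted p = 0.133). The pseudocount of 1 understates changes of a gene at this level. Bcl2l11 made up 7.68%, 6.36% and 7.55% of the summed BH3-only gene FPKM in KO, against 5.01%, 5.56% and 5.82% in WT, and on the sum of transcript FPKM the groups were also separate.

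Bbc3 (PUMA), best known as a p53 target (ENSMUSG00000002083, chromosome 7, 16308393 to 16318205, plus strand), went with Bax. It was at 4.81, 5.17 and 3.04 FPKM in KO, against 3.81, 3.25 and 3.59 FPKM in WT, with KO replicates 1 and 2 above and KO replicate 3 below every WT library. The log2 difference was 0.21 (95% interval -0.17 to 0.59, limma adjusted p = 0.870). It rose without KO replicate 3, by 0.40 (95% interval 0.20 to 0.60, limma adjusted p = 0.0350).

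Pmaip1 (ENSMUSG00000024521) encodes NOXA, which binds mainly MCL1 and A1. It was at 5.20, 4.92 and 5.54 FPKM in KO, against 4.90, 4.59 and 4.39 FPKM in WT, every KO library being above every WT library. The log2 difference of 0.14 did not pass (95% interval -0.05 to 0.34, limma adjusted p = 0.843), and without KO replicate 3 it was 0.11 (limma adjusted p = 0.378). Bid, which links death receptors to mitochondria after cleavage by caspase 8 (ENSMUSG00000004446, chromosome 6, 120891930 to 120916853, minus strand), was the one member lower in all KO libraries. It measured 5.08, 4.98 and 5.43 FPKM in KO, against 5.60, 5.58 and 6.001 FPKM in WT. The log2 difference was -0.13 (95% interval -0.30 to 0.05, limma adjusted p = 0.846), and -0.16 without KO replicate 3 (limma adjusted p = 0.176). Bad, a BH3-only protein held inactive by growth factor signalling through phosphorylation (ENSMUSG00000024959, chromosome 19, 6941861 to 6951899, plus strand), was at 4.87, 5.08 and 3.80 FPKM in KO, against 4.9999, 4.87 and 5.19 FPKM in WT. KO replicates 1 and 2 lay inside or just beside the WT range, and KO replicate 3 below it. The log2 difference of Bad was -0.12 with all libraries (limma adjusted p = 0.874) and -0.01 without KO replicate 3 (limma adjusted p = 0.932).

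Summed by role, the pro-survival genes were higher in KO. Their gene FPKM summed to 221, 205 and 181 in KO replicates 1 to 3, against 171, 173 and 176 in WT, so that the groups were separate. Leaving Bcl2a1b out, the sum of Bcl2, Bcl2l1 and Mcl1 was 140, 139 and 142 FPKM in KO, against 126, 128 and 131 FPKM in WT. That sum was thus close in all 3 KO libraries although Bcl2 and Bcl2l1 each differed between them. The BH3-only genes summed to 21.6, 21.5 and 19.3 FPKM in KO and 20.3, 19.4 and 20.3 FPKM in WT, with overlap. The pro-survival sum over the BH3-only sum was 10.2, 9.54 and 9.40 in KO, against 8.41, 8.94 and 8.67 in WT, and the groups were also separate on the sum of transcript FPKM (7.94 to 8.42 in KO and 6.95 to 7.54 in WT). With Bcl2a1b left out, this ratio overlapped between groups on both scales, at 6.46 to 7.39 in KO and 6.19 to 6.59 in WT in gene FPKM. The pro-survival sum over Bax was 3.94, 3.70 and 4.54 in KO, against 3.82, 4.03 and 3.88 in WT, with overlap. Which pro-survival gene made up the sum differed between libraries: Bcl2 took 3.45%, 3.25% and 9.60% in KO, against 6.81%, 6.55% and 5.92% in WT, and Bcl2a1b took 36.7%, 32.3% and 21.4% in KO, against 26.4%, 26.4% and 26.0% in WT. These sums are descriptions, since they were chosen with the values in view.

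Differences in each KO library went with transcript length among the members. The longest annotated transcript ran from 817 bases for Bcl2a1b and 1100 for Bax to 5036 for Bcl2l11 and 7191 for Bcl2. Spearman's rho between that length and the difference from the WT mean, over the 10 members, was -0.47 for KO replicate 1, -0.58 for KO replicate 2 and 0.93 for KO replicate 3. Over 10868 genes with a reference length it was -0.32, -0.45 and 0.20 in the KO libraries, against 0.25, -0.0049 and -0.23 in WT replicates 1 to 3. When each library's trend with length and GC content over all genes was removed, rho over the members was -0.36, -0.30 and 0.90 for KO replicates 1 to 3. After that removal, differences with all libraries were -0.08 for Bcl2, 0.33 for Bcl2a1b and 0.32 for Bcl2l11 on the log2 scale, and again 0 of 10 members passed (limma adjusted p of 0.702 to 0.958), beside 0.138% of genes. An unadjusted p under 0.05 was then found for 3 of 10 (Mcl1, Bcl2l11 and Pmaip1), beside 6.38% of genes. Without KO replicate 3 and with the trends removed, a combination added after the data were seen, 4 of 10 passed, beside 8.84% of genes: Bcl2 at -0.38 (limma adjusted p = 0.0185), Bcl2l1 at 0.29 (0.0258), Bcl2a1b at 0.59 (0.0176) and Bbc3 at 0.36 (0.0459). Bax, at 0.22 (limma adjusted p = 0.0778), no longer passed. Whether length and RNA quality have a part in the remaining differences was not tested. Malat1, a long nuclear transcript, measured 2.44, 1.69 and 3.32 FPKM in KO and 4.51, 3.47 and 3.80 FPKM in WT. Neat1, listed with it for RNA quality, measured 0.609, 0.552 and 1.19 FPKM in KO and 1.31, 1.02 and 1.05 FPKM in WT, with overlap.

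**Figure D4:**
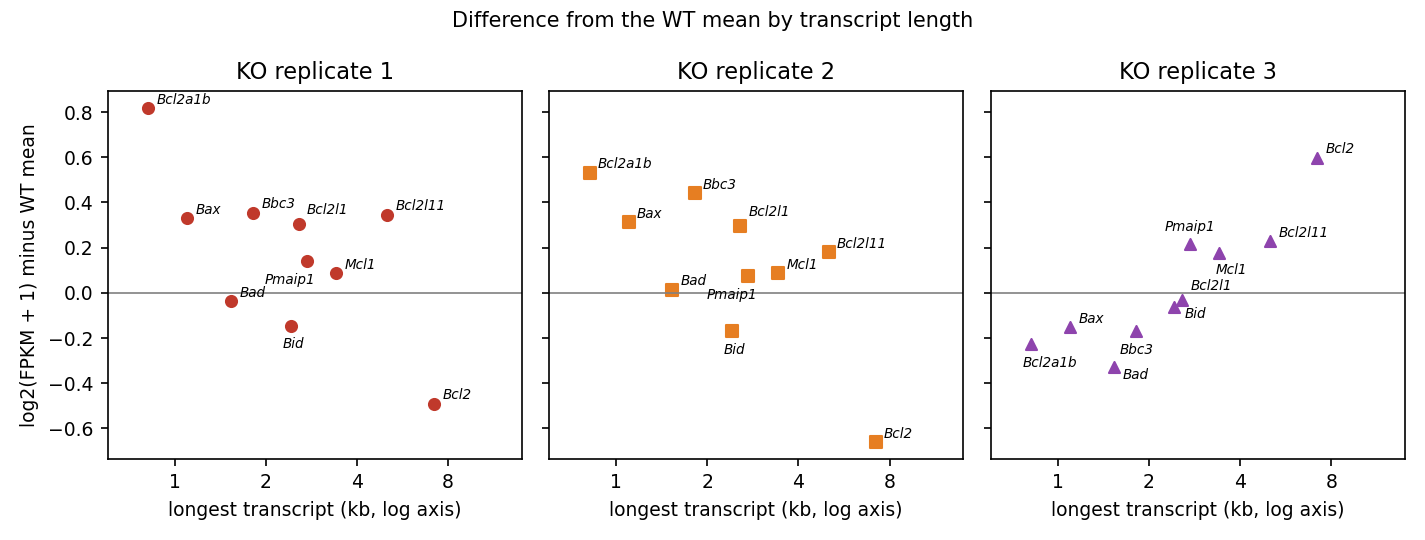
Difference from the WT mean in log2(FPKM + 1) against the length of each member's longest annotated transcript in kilobases (log axis), with 1 panel per KO library and 1 point per gene. In KO replicate 3 the points climb with length (rho 0.93), and in KO replicates 1 and 2 they run downward (rho -0.47 and -0.58), with Bcl2 at the long end and Bcl2a1b at the short end.

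Several members are spliced into proteins of different activity. Of 39 listed transcripts of the members, 18 reached 1 FPKM in at least 3 libraries. None passed the limma test (lowest adjusted p = 0.885, beside 0.0417% of 19184 transcripts called). At an unadjusted p under 0.05 there were 0 of 18, beside 1068 of 19184. Of the 18, 4 had groups that did not overlap, beside 11.1% of tested transcripts. Those of Mcl1, Pmaip1 and Bid are the only or main transcript of their gene and repeat the gene result, and the last was of Bad. Without KO replicate 3, 0 passed (lowest limma adjusted p = 0.145, beside 0.0273%). An unadjusted p under 0.05 was found for 3 of 18, close to the share over all transcripts (2752 of 18288). They were the main transcripts of Bcl2, Bcl2a1b and Bbc3.

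For Bcl2l1, a pair of transcripts carries the same 233-codon coding sequence, that of BCL-xL. ENSMUST00000007803 was at 60.7, 86.0 and 38.1 FPKM in KO and 29.2, 68.2 and 47.5 FPKM in WT, and ENSMUST00000109820 at 42.7, 20.2 and 41.6 FPKM in KO and 51.5, 14.4 and 37.2 FPKM in WT. Where one was high the other was low, in both groups, and together they were steadier, at 103, 106 and 79.6 FPKM in KO and 80.7, 82.6 and 84.7 FPKM in WT. This coding sequence made up 86.2% to 93.8% of the gene's summed transcript FPKM in every library. The next Bcl2l1 transcript, ENSMUST00000140436 with 209 codons, was at 5.57, 4.03 and 6.46 FPKM in KO and 8.29, 6.11 and 3.78 FPKM in WT.

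Full-length BAX of 192 codons came from ENSMUST00000033093, at 57.4, 79.9 and 43.5 FPKM in KO and 54.7, 48.4 and 57.7 FPKM in WT, or 60.9% to 81.0% of the gene. ENSMUST00000210392 was at 31.4, 10.8 and 19.9 FPKM in KO and 17.6, 20.7 and 16.8 FPKM in WT, and ENSMUST00000211365 (171 codons) at 4.90, 7.65 and 3.76 FPKM in KO and 4.36, 3.79 and 3.64 FPKM in WT. The groups overlapped for all 3. Of BIM, the 196-codon form (BIM-EL, ENSMUST00000110341) led, at 2.03, 1.58 and 1.25 FPKM in KO and 1.32, 1.25 and 1.32 FPKM in WT. The 91-codon form ENSMUST00000089634 was at 0.689, 0.556 and 0.902 FPKM in KO and 0.152, 0.587 and 0 FPKM in WT. ENSMUST00000103210, with the 140 codons of BIM-L, was at 0.344, 0.408 and 0.746 FPKM in KO and 0.113, 0.1396 and 0.686 FPKM in WT, so that KO replicate 3 held less BIM-EL and more of the shorter forms than the other KO libraries. BIM-S (110 codons) was listed at 0 in 4 of 6 libraries and at most at 0.0861 FPKM.

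Among the 18 tested transcripts, 1 of Bad was the only one whose groups were separate while those of its gene overlapped. The 204-codon form ENSMUST00000025910 was at 3.54, 4.08 and 2.30 FPKM in KO, against 4.38, 5.69 and 5.11 FPKM in WT, lower in every KO library (log2 difference -0.51, limma adjusted p = 0.885, and -0.33, limma adjusted p = 0.405, without KO replicate 3). The 162-codon ENSMUST00000113423 was at 3.87, 1.94 and 1.68 FPKM in KO and 3.31, 0.860 and 1.4002 FPKM in WT, and the 131-codon ENSMUST00000237334 at 1.30, 2.49 and 2.74 FPKM in KO and 1.57, 1.60 and 2.41 FPKM in WT, both with overlap. The remaining members were carried by 1 leading transcript each: 98.2% to 99.7% of Bcl2 (ENSMUST00000112751), 94.9% to 99.2% of Bid (ENSMUST00000004560) and 80.0% to 96.2% of Bbc3 (ENSMUST00000002152), while Mcl1, Bcl2a1b and Pmaip1 had a single listed transcript.

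**Figure D5:**
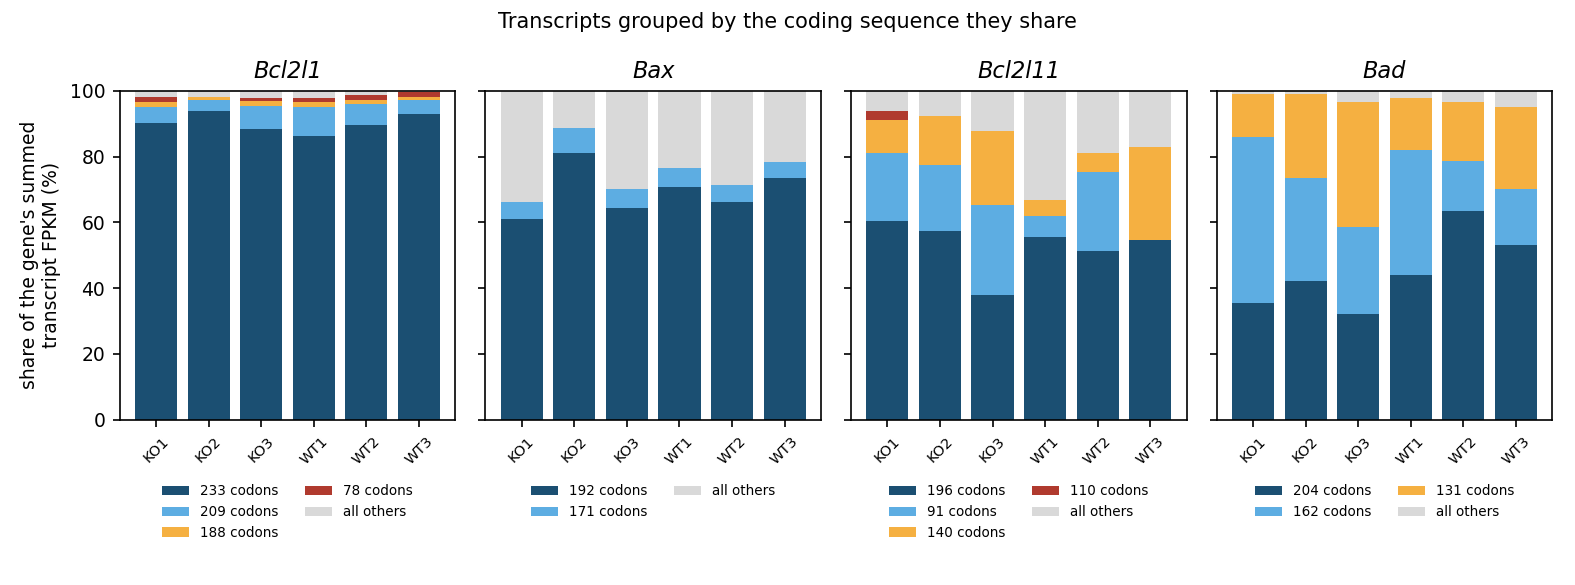
Share of each gene's summed transcript FPKM, in percent, held by transcripts with the same coding length, for Bcl2l1, Bax, Bcl2l11 and Bad in the 3 KO and 3 WT libraries; grey is all other transcripts. BCL-xL (233 codons) holds 86.2% to 93.8% in all libraries, and the 204-codon form of Bad ranges from 32.0% in a KO library to 63.6% in a WT library.

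Members differed in whether they varied together over the 6 libraries. Of 45 pairs, the highest Pearson correlations of log2(FPKM + 1) were 0.978 for Bax with Bbc3, 0.971 for Bcl2l1 with Bax and 0.969 for Bcl2a1b with Bax. The lowest were -0.952 for Bcl2 with Bax, -0.930 for Bcl2 with Bbc3 and -0.884 for Bcl2 with Bcl2a1b. Spearman's rho was 0.886, 0.943 and 0.943 for the first 3 pairs and -0.886, -0.829 and -0.943 for the last 3. Without the 2 libraries farthest from the median, r was 0.899, 0.847, 0.913, -0.977, -0.888 and -0.975 in the same order. These are descriptions: all pairs share the same 6 libraries, and KO replicates 1 and 2 against KO replicate 3 span most of the range.

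The 250 bases before the start of Bax and of one of 3 RefSeq entries for Bbc3 are shown because this pair of genes varied most closely together. Both hold the E-box CACGTG, in capitals; the letters read the same on both strands. They are RefSeq sequences on GRCm38.p6, in the direction of the gene, from chr7:45466899-45467148 (minus strand) for Bax and chr7:16310181-16310430 (plus strand) for Bbc3.
Bax: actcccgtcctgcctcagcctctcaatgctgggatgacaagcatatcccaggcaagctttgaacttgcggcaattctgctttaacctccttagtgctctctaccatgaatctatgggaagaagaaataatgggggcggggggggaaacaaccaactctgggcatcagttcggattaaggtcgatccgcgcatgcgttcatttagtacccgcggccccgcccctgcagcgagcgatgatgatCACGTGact
Bbc3: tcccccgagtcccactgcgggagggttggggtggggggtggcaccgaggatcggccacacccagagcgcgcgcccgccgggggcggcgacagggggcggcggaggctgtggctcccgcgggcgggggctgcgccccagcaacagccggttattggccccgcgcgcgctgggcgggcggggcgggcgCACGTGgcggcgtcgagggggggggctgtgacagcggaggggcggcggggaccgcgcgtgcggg
The E-box begins 9 bases before the start of Bax and 64 before the start of that Bbc3 entry. It occurs in 6.02% of 32851 such windows. The windows of the other Bbc3 entries held no E-box. The Bbc3 window shown lies inside the gene span given above, which begins at 16308393, and not before it. Promoter entries were found for 9 of the 10 members, which with the other A1 copies make 17 windows. Also searched, on both strands, were the FOXO motif GTAAACA (3.17% of all windows), found for Bcl2l11 and Bbc3, an NF-kB motif (1.41%), found for Bbc3, Bcl2l1 and Mcl1, and the ETS and PU.1 motif GAGGAAGT (2.44%), found for Bad and all 3 A1 copies. The p53 response element was found in 0 of the 17 windows and in 0.0639% of all. Only these 250 bases were searched, so sites elsewhere in or near the genes were not covered. A Bcl2l11 window (chr2:128125788-128126037, plus strand) is shown for the member of smallest p. The FOXO motif is in capitals, beginning 227 bases before the start, and the window of another Bcl2l11 entry held none.
Bcl2l11: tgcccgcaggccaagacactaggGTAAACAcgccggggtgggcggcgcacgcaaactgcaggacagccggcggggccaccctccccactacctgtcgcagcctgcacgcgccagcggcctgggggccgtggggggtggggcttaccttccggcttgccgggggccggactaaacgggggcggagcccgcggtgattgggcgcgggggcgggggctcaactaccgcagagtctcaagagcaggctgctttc
A match is a description of letters in this window and not a binding site.

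Around these members, a list of 54 further genes of the mitochondrial apoptosis pathway was followed, of which 53 were found and 46 tested. With all libraries 0 of 46 passed in limma, beside 0.11% of all tested genes, and 0 had an unadjusted p under 0.05, beside 5.61%. Of the 46, 17 had a positive difference, and the median log2 difference was -0.05, beside -0.03 over all tested genes. Without KO replicate 3, 7 of 46 passed (15.2%, beside 10.1% of genes), and the near-identical Bcl2a1a and Bcl2a1d were both among them. With the A1 copies summed under Bcl2a1b, a setting added after the data were seen, 5 of 44 passed. Of the 7, those higher in KO were Bcl2a1d (0.98, limma adjusted p = 0.00335), Bcl2a1a (0.66, 0.0238) and Cycs, which encodes cytochrome c (0.25, 0.0370). Lower were Bnip3 (-1.01, limma adjusted p = 0.00246) and Bnip3l (-0.54, 0.00544), hypoxia-induced mitophagy receptors related to the BH3-only group, Foxo1 (-0.28, 0.0262) and the MCL1 ubiquitin ligase Huwe1 (-0.28, 0.0473).

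Bnip3 was at 14.5, 15.3 and 59.0 FPKM across KO replicates 1 to 3, against 30.0, 29.7 and 33.5 FPKM in WT, and Bnip3l at 24.6, 23.5 and 57.1 FPKM in KO, against 34.6, 36.0 and 35.8 FPKM in WT. As for Bcl2, KO replicates 1 and 2 were below and KO replicate 3 above every WT library. Bak1, the other main effector, was at 37.3, 40.6 and 33.3 FPKM in KO and 33.2, 36.1 and 34.7 FPKM in WT, with KO replicates 1 and 2 above every WT library. The pro-survival Bcl2l2 was at 3.36, 2.84 and 5.16 FPKM in KO and 4.17, 4.14 and 4.19 FPKM in WT, on the pattern of Bcl2. Bcl2l12 was at 5.48, 5.52 and 7.04 FPKM in KO and 6.76, 6.74 and 6.63 FPKM in WT, on the same pattern. For Bcl2l13 (9.04 to 9.83 FPKM in KO, 9.25 to 9.75 in WT) and the BH3-only gene Bmf (1.31 to 1.39 FPKM in KO, 1.12 to 1.38 in WT) the groups overlapped. The rest of the family was under the filter, at most at 1.29 FPKM: Bik, Bcl2l14, Bok, Bcl2l15, Hrk and Bcl2l10, and Bcl2a1c was not matched by symbol.

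Among the other pathway genes with the smallest unadjusted p, beside Bcl2a1d and Bcl2l12, were a caspase substrate, a death receptor and regulators. Parp1, a caspase substrate, was at 58.8, 66.3 and 62.6 FPKM in KO, against 70.3, 67.1 and 68.3 FPKM in WT, lower in every KO library (-0.13, limma adjusted p = 0.843, and -0.13, limma adjusted p = 0.192, without KO replicate 3). The death receptor Fas was at 8.10, 5.99 and 7.44 FPKM in KO, against 6.57, 6.04 and 6.31 FPKM in WT, and the caspase inhibitor Xiap at 8.12, 6.75 and 10.4 FPKM in KO, against 10.4, 9.56 and 8.84 FPKM in WT, both with overlap. Mdm2, a p53 target and its ubiquitin ligase, was higher in every KO library, at 19.9, 19.2 and 19.1 FPKM against 18.6, 18.1 and 18.3 FPKM in WT (0.07, limma adjusted p = 0.870, and 0.09, limma adjusted p = 0.301, without KO replicate 3). Trp53 itself overlapped, at 39.5, 45.2 and 36.2 FPKM in KO and 42.0, 41.7 and 40.0 FPKM in WT. Of the 46 tested pathway genes, only Mdm2 was higher in every KO library (1 of 46, beside 4.28% of all tested genes). Only Parp1 was lower in every KO library (1 of 46, beside 6.88%).

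The authors' deposited table gave the members q-values of 0.2603 to 0.99981, the lowest for Bcl2l11, with a fold of 1.37 and a p-value of 0.00239 in the authors' deposited table.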

How the data were processed

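RNA of 6 libraries was compared, 3 Sirt2_KO against 3 Sirt2_WT, grouped by title. The authors deposited gene and transcript tables in FPKM, with a fold column (a ratio of mean KO over mean WT FPKM), its log2, and p-value and q-value columns, per the file headers. Tools listed without version or role in the submitters' processing notes are HISAT2, StringTie, cutadapt, FastQC, edgeR and DESeq2. The notes give the build mm9, but all 39 member transcripts had GENCODE M21 coordinates of GRCm38. Read depth is unknown, so no counting interval is given.

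Features reaching 1 FPKM in 3 or more of the 6 libraries were tested with limma 3.58.1 (R 4.3.3) on log2(FPKM + 1), using a variance trend and Benjamini-Hochberg adjustment over all features, and called at adjusted p under 0.05. This scale understates changes of low genes. The fit was tested on simulated data. The members and lists were chosen with earlier results of these data known. Named were all members and Sirt2, the other BCL2 family genes of the pathway list, its 8 genes of smallest p (some are not reported here), up to 3 leading transcripts per member, and the 3 highest and 3 lowest correlated pairs. Foxo1, Huwe1, Cycs, Trp53, Malat1, Neat1 and single markers were named after their values were seen. Alternatives were median scaling, no filter or one at 5 FPKM, a pseudocount of 0.1, no variance trend, the replicate block, removal of length and GC trends, and leaving out each library. Promoters are from RefSeq. Figures were drawn with matplotlib 3.10.9.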

Additional observations from a re-analysis of the deposited data

How the results depend on the processing

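Among the 10 members, the log2 differences kept their sign under every alternative, except that of Bcl2, which ran from -0.58 without KO replicate 3 to 0.054 without KO replicate 2. Calls among the members were made only where KO replicate 3 was left out, so leaving out each library gave 0 to 5 calls. Leaving that library out gave 5 calls also with the Bcl2a1 genes summed and 4 with length and GC trends removed, both added after the data were seen. At 5 FPKM, Bcl2l11, Bbc3, Pmaip1 and Bad were not tested. For the other pathway genes, leaving out each library gave 0 to 7 calls, and without KO replicate 3 there were 5 with the Bcl2a1 genes summed and 6 with trends removed. Over all genes, the 12 calls (10 higher, 2 lower in KO) became 5 at 5 FPKM, 0 to 1088 when each library was left out, 1086 without KO replicate 3 with the Bcl2a1 genes summed and 948 with trends removed. The 8 transcript calls became 4 without a filter, 25 without the variance trend and 1 to 6 when each library was left out. The cause was not tested.

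Transcripts of members that changed sign, none of them called, were ENSMUST00000033093 of Bax (-0.095 without KO replicate 2 to 0.34 without KO replicate 3), ENSMUST00000210392 of Bax (-0.30 without KO replicate 1, -0.0092 without WT replicate 3, up to 0.43 without KO replicate 2), ENSMUST00000112751 of Bcl2 (-0.59 without KO replicate 3 to 0.052 without KO replicate 2), and ENSMUST00000109820 (-0.063 without KO replicate 1, -0.044 without KO replicate 3, -0.40 without WT replicate 2, up to 0.49 without WT replicate 1) and ENSMUST00000140436 (0.040 without KO replicate 2, 0.106 without WT replicate 1, down to -0.37 without WT replicate 3) of Bcl2l1. The Sirt2 call was lost in 10 alternatives.

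Same-numbered KO and WT libraries did not deviate together (correlations of deviations 0.00668, -0.0170 and -0.0756), so the numbers were not taken as pairs. With the replicate number as a block, 13 genes (12 higher, 1 lower), 0 members, 0 other pathway genes, 3 transcripts and 0 member transcripts were called, and 0 of the 3 KO libraries correlated best with the WT library of the same number.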

Other observations

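Of the pathway genes under the filter on low values, Fasl and Bcl2l15 had groups that did not overlap. Fasl, the ligand by which activated and cytotoxic T cells trigger Fas, was at 1.09, 0.690 and 1.02 FPKM across KO replicates 1 to 3, against 0.305, 0.256 and 0.540 FPKM in WT replicates 1 to 3. Bcl2l15 was lower in every KO library, at 0.177, 0.125 and 0.186 FPKM against 0.303, 0.296 and 0.343 FPKM in WT. These genes were chosen after their values were seen.

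The tested genes whose values over the 6 libraries were most like those of Bcl2l11 were Irak2 (Pearson r 0.994), Rps6ka1 (0.992), Hibadh (0.988), Mir132 (0.984) and Pmvk (0.980), among 10864 compared, of which 80 reached 0.9. With 6 libraries and so many genes this is a description only.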
